A study of Drosophila melanogaster with 2 samples.

Results

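Weak reproducible promoter peaks are the faint end of the map of CG12744 binding in Drosophila embryos: summits near start sites whose signal lay below every thresholded peak but that had a summit in both replicates. They were chosen from the deposited pooled list of 30000 peaks by 3 steps. The pooled signal had to be below 68.3846, the lowest signal of the 2758 thresholded peaks. A summit had to lie within 100 bp in the list of each replicate, and the pooled summit within 500 bp of an annotated start site, with chromosome 4 left out. These steps left 26803 peaks below the limit on the 5 large arms, 7816 of them with a summit in both replicates, and 2929 of those at promoters. The signal, the match in the replicates and the distance to a start site therefore chose the peaks, and are given below as a description.

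The protein was mapped as a transcription factor by chromatin immunoprecipitation and sequencing, with an antibody against green fluorescent protein (GFP), in whole embryos of 1 transgenic line that stably expresses CG12744 with GFP at its C-terminal end. Embryos of both sexes were pooled over 0 to 24 h of development, so that all tissues and stages are mixed in each sample. The 2 samples are biological replicates 2 and 4 of this single group, and there is no other genotype or treatment among the peak lists to compare them with. The labels name a control experiment, which was not used here, so the background at these sites was not examined. The number of reads behind each list is unknown.

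A promoter is the stretch of DNA around a start site where RNA polymerase II assembles. Fly genes that are active in most cells often carry short elements there that sequence-specific factors bind, such as the DNA replication-related element (DRE), read by Dref, and motif 1, read by M1BP, whereas the TATA box is typical of regulated genes. In the compact fly genome many genes lie head to head and share the promoter region between them. Peak callers rank such regions by enrichment, and the irreproducible discovery rate (IDR) sets a threshold where ranks in replicates stop agreeing.

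The DNA under some of the weak summits shows the elements to which the results below return. They are among the members of highest pooled signal with one of 3 elements within 50 bp of the summit and no annotated exon in the window. Each run holds 50 bases to each side of the summit, read 5′ to 3′ on the strand of the named gene from the Release 6 genome, and capitals mark the element on either strand. CAACACTG, or CAGTGTTG on the other strand, was singled out by an earlier analysis of the same peaks.
if (dm6 chrX:16782277-16782377, minus strand): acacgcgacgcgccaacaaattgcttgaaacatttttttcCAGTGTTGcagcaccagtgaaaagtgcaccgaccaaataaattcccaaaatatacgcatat
Ppcs (dm6 chr3R:19148090-19148190, minus strand): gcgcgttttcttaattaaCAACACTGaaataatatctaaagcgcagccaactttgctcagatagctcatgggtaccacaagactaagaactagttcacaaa
Ulp1 (dm6 chrX:19208190-19208290, minus strand): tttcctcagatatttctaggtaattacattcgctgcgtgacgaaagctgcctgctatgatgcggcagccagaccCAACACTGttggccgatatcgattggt
The gene if encodes an integrin alpha subunit, Ppcs an enzyme of coenzyme A synthesis and Ulp1 a protease that removes SUMO. The DRE, TATCGATA, reads the same on both strands.
kibra (dm6 chr3R:14724266-14724366, minus strand): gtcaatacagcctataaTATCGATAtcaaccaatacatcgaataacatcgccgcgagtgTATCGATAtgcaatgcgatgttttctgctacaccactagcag
Tpr2 (dm6 chr2L:16491433-16491533, plus strand): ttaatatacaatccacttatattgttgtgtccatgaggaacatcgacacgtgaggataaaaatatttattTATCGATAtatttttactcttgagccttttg
The window of kibra, an upstream member of the Hippo growth control pathway, holds the element at 2 positions. Tpr2 encodes a co-chaperone. Motif 1 lies under the remaining pair.
Fdh (dm6 chr3R:10872649-10872749, minus strand): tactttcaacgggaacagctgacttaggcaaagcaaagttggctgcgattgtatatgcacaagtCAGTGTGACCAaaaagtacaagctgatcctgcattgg
BTBD9 (dm6 chrX:10768435-10768535, plus strand): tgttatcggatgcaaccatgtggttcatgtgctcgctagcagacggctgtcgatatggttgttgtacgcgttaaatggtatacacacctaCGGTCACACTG
Fdh encodes formaldehyde dehydrogenase, and the BTBD9 window also lies within 500 bp of a start site of Atg8a, the ubiquitin-like protein of autophagosomes.

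These summits lay among the higher ranks of the members. The if summit, 218 bp downstream of a start site and in an intron, had a pooled signal of 68.1 at rank 2783, with 30.1 in replicate 2 and 37.9 in replicate 4. The Ulp1 summit, 53 bp upstream, had 65.6 in the pooled list, 34.4 in replicate 2 and 28.8 in replicate 4. The kibra summit, 55 bp upstream, had 62.7, 35.7 and 30.0 in that order. At BTBD9, 52 bp upstream, they were 56.7, 30.3 and 18.8. The signal is the deposited score of the authors' peak caller, whose scale is not stated, and values are set side by side only within a list. The pair of replicates ranked some of these summits alike and others far apart: kibra stood at ranks 3375 and 3296 in replicates 2 and 4, and Ppcs at ranks 2568 and 10878.

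Across all 2929 members the pooled signal ran from 17.4 to 68.4, with a median of 42.0. The thresholded promoter peaks, 1592 in number, ran from 68.4 to 1138, with a median of 100.7. Nothing separated the groups at the limit itself: the highest member had 68.3574 and the lowest thresholded peak 68.3846, and 39 members and 37 thresholded promoter peaks lay within 1 unit of it. The deposited −log10 q value of the members had a median of 1.53, and 1095 of them reached 2, a q value of 1% or less. A further 981 members had a −log10 q value below 1. By rank they stretched from 2761 to 29770 of 30000, with a median of 6643.

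In the replicates most members stood well below the top. Their median rank was 8443 in replicate 2 and 9446 in replicate 4. Among the 2758 highest peaks of each replicate, 157 members stood there in replicate 2 alone, 163 in replicate 4 alone, 1 in both and 2608 (89.0%) in neither. The log10 signals in the 2 lists had a Pearson correlation of 0.22 and a Spearman correlation of 0.24 over the 2929 members, against 0.744 and 0.634 over the 1488 thresholded promoter peaks found in both lists, as a description in which the narrow signal range of the members is fixed by the choice. The choice itself kept summit distances to 100 bp or less in each replicate. Within that limit the median distance from the pooled summit was 17 bp in replicate 2 and 16 bp in replicate 4. Both were within 25 bp in 1040 members (35.5%) and within 50 bp in 1817 (62.0%).

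**Figure D1:**
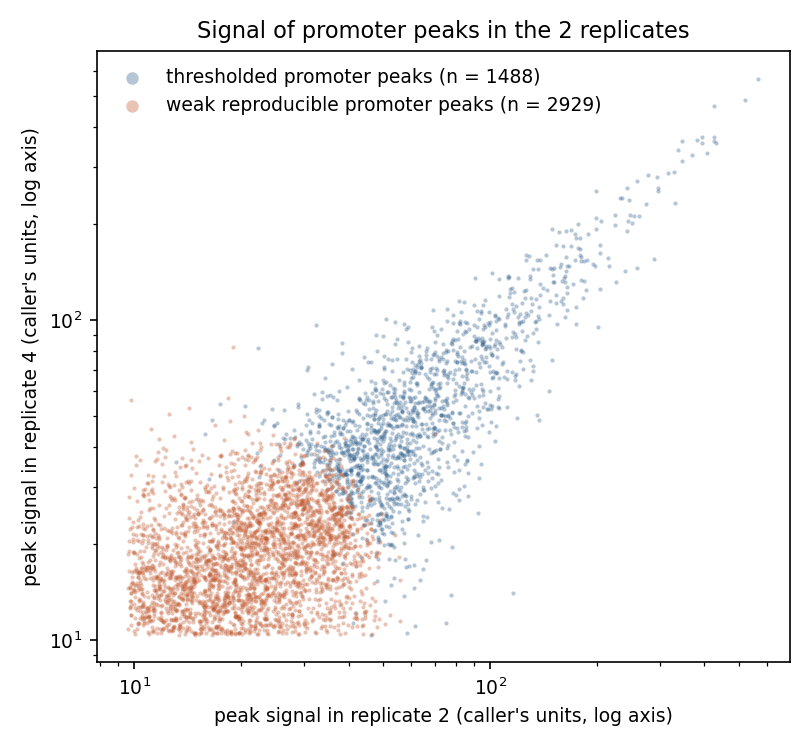
Signal of each promoter peak in replicate 2 (horizontal, log axis) and replicate 4 (vertical, log axis), in the peak caller's units, for the 2929 weak reproducible promoter peaks (orange) and the 1488 thresholded promoter peaks with a summit within 100 bp in both replicates (blue). The weak peaks form a round cloud with medians of 21.5 and 18.4, and the thresholded peaks a diagonal band above it.

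The pooled list thinned out steadily with rank. Of the 8322 promoter peaks below the limit, 35.2% (exact 95% interval 34.2 to 36.2) had a summit in both replicates, against 26.4% of the 18481 away from promoters. At ranks 2759 to 5000 the share was 79.9% (951 of 1190), at ranks 10001 to 15000 it was 32.1% and at ranks 25001 to 30000 it was 1.95%. Peaks away from promoters had 83.6%, 38% and 0.925% in the same ranges. In the ranges from rank 2759 to 20000 the share was lower at promoters than elsewhere, and at ranks 20001 to 30000 it was higher, as a description with no test. Intervals of shares here and below cover counting error over peaks alone, since peaks are not replicates of the experiment.

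The 12 members of highest signal lay just under the limit and at unrelated kinds of genes. The highest, with its summit 112 bp upstream of CG12384, had a pooled signal of 68.4, with 35.2 in replicate 2 and 32.7 in replicate 4. Next came lncRNA:CR45539, a long non-coding RNA gene, and spag, which encodes a co-chaperone. At spag, which has diverging start sites within 500 bp, the summit lay 18 bp upstream with 39.8 in replicate 2 and 25.7 in replicate 4. The others included Glo1 (glyoxalase), mRpL11 (a mitochondrial ribosomal protein), Enoph and pug (enzymes of metabolism), Flo2 (flotillin) and if, besides mtgo, lncRNA:CR45221 and a snoRNA gene. Their summits lay within 12 to 218 bp of the start site, 10 of the 12 upstream of it. A thresholded summit lay 229 bp from the mRpL11 summit and 199 bp from the mtgo summit.

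Rank in the pooled list and rank in the replicates could part widely. The summit at CG8132, 32 bp downstream of the start site, stood at rank 836 in replicate 2 with a signal of 69.9 and at rank 1520 in replicate 4 with 44.1, and is the 1 member among the highest 2758 of both lists. Its pooled rank was 4486, and a thresholded summit lay 234 bp away. The mlt summit held ranks 2836 and 1611 in the replicates and rank 25141 in the pooled list, with a thresholded summit 201 bp away. At Eip75B, which encodes a nuclear receptor induced by the steroid ecdysone, the ranks were 3358, 1798 and 29770, with a thresholded summit 200 bp away. Flo2 (625 bp from a thresholded summit), pdm3, a POU domain factor gene, and Drat stood high in both replicates too, at worse ranks of 2945, 2990 and 2893. Over all members 139 lay within 500 bp of a thresholded summit and 288 (9.83%) within 1000 bp, and the closest was 199 bp away.

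Summits of weak reproducible peaks lay upstream of the start site less often than those of thresholded ones. Of 2917 members not exactly on a start site, 1835 (62.9%) were upstream of the nearest one, against 1276 of 1588 thresholded promoter peaks (80.4%), a difference of -17.4 percentage points (Newcombe 95% interval -20.0 to -14.8). With the summits of replicate 2 in place of the pooled ones the difference was -17.2 points, and with those of replicate 4 it was -18.5. Weak promoter peaks that lacked a summit in 1 or both replicates were upstream in 53.3% of 5374, so that the members stood 9.58 points above them (7.36 to 11.8). The median position was 41 bp upstream for the members, 88 bp upstream for thresholded peaks and 15 bp upstream for the weak peaks not matched in both.

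The place lost upstream was taken up on and past the start site. Members lay 50 to 200 bp upstream in 28.6% of cases, against 46.1% of thresholded promoter peaks. They were within 50 bp of the start in 28.0% against 23.1%, and 50 to 200 bp downstream in 14.2% against 6.97%. By annotation, 1211 members (41.3%) lay between genes, 802 (27.4%) in a 5′ UTR, 606 (20.7%) in an intron and 140 (4.78%) in a coding exon. Of thresholded promoter summits 7 (0.440%) fell in a coding exon, 4.34 points fewer, and 283 (17.8%) in a 5′ UTR, 9.60 points fewer, and both intervals of the difference excluded 0. Weak promoter peaks not found in both replicates had 10.6% in a coding exon, and the members differed from them by -5.81 points (-6.92 to -4.66). Their 5′ UTR share was 26.2%, and that difference was not called (-0.82 to 3.17). These contrasts by annotation were added after the values were seen.

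**Figure D2:**
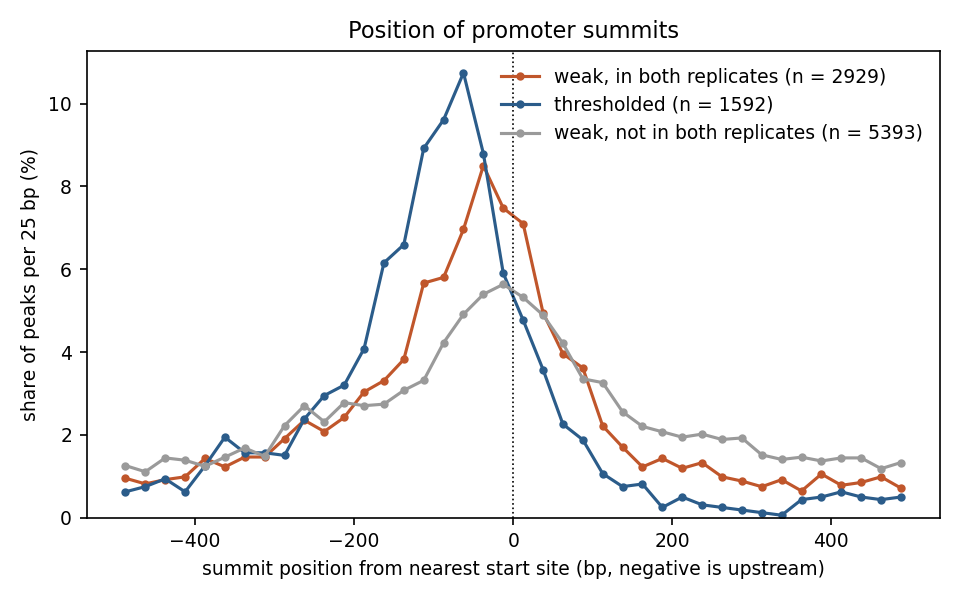
Share of peaks (vertical, percent per 25 bp) by position of the summit relative to the nearest annotated start site (horizontal, bp, negative is upstream) for weak reproducible, thresholded and other weak promoter peaks. The thresholded peaks crowd upstream, with a median 88 bp upstream, the weak reproducible ones nearer the start site, with a median 41 bp upstream, and the weak peaks not found in both replicates spread widest.

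Head-to-head promoters were also rarer among the weak peaks. A diverging pair of start sites of different genes, both within 500 bp of the summit, was present at 658 members (22.5%) and at 602 thresholded promoter peaks (37.8%), a difference of -15.3 points (-18.2 to -12.5), and of -15.3 and -15.6 points with the summits of replicates 2 and 4. Among weak peaks not found in both replicates the share was 16.3%, 6.13 points below the members (4.34 to 7.95). The side of the start site was also compared within each kind of promoter, a split added after the values were seen. At promoters with no diverging pair, 60.4% of the members were upstream against 79.96% of thresholded peaks, a difference of -19.6 points (-22.7 to -16.3). At those with a diverging pair the shares were 71.6% and 81%, a difference of -9.40 points (-14.0 to -4.69).

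The upstream share fell along the signal on both sides of the limit, and a step at the limit was not tested. The thresholded promoter peaks and the members were each divided into 4 classes of equal size by signal. From the highest class down, the upstream share was 82.4%, 81.9%, 79.6% and 77.5% of thresholded peaks. In the classes of the members it went on to 71.4%, 66.4%, 60.5% and 53.4%. The share with diverging start sites was 36.9%, 41.5%, 40.5% and 32.4% in the thresholded classes and 29.5%, 25%, 20.8% and 14.6% in those of the members. The lowest class of the members was thus upstream about as often as the weak peaks not matched in both replicates, whose share was 53.3%.

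**Figure D3:**
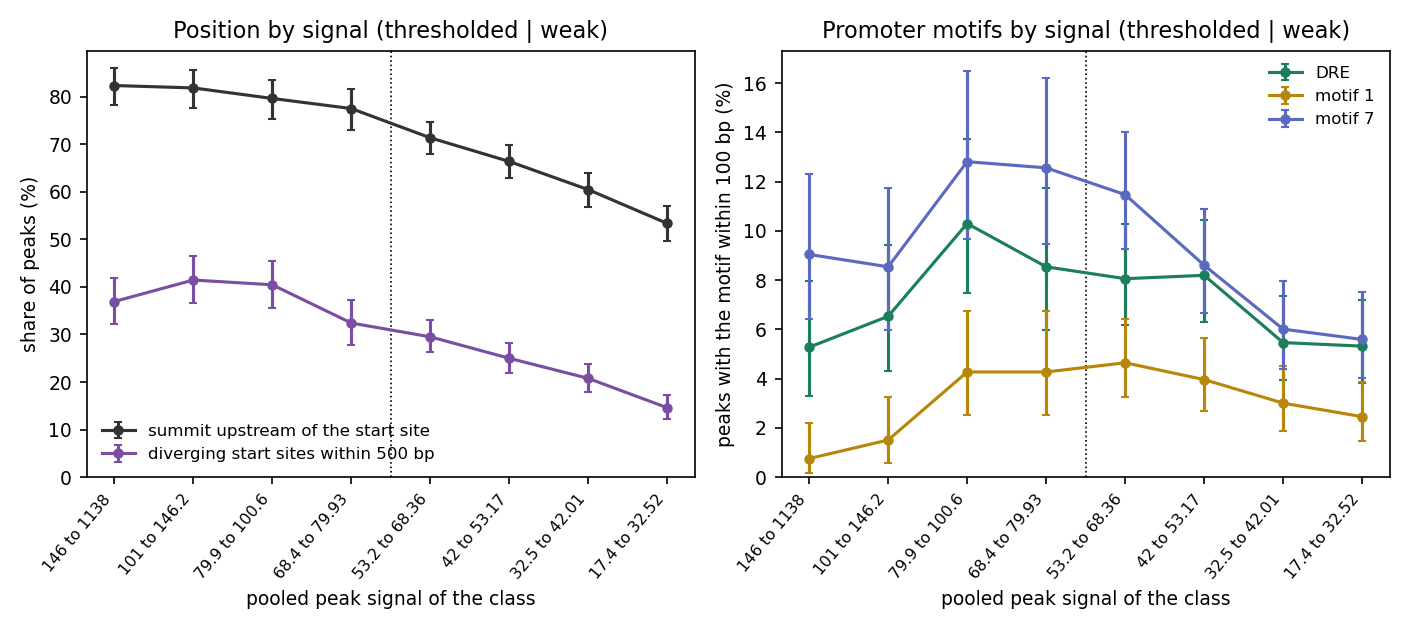
Promoter peaks in 4 equal signal classes of thresholded peaks (left of the dotted line) and 4 of weak reproducible peaks (right of it), from high to low pooled signal: the left panel gives the share upstream of the start site and with diverging start sites, the right panel the share with a DRE, motif 1 or motif 7 within 100 bp, with exact 95% intervals. The upstream share goes from 82.4% to 53.4%, and the DRE share from 5.28% in the highest class through 10.3% in the third thresholded class to 5.32% in the lowest.

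Elements of housekeeping promoters were more frequent under the weak summits than in the DNA 1000 bp to each side. The members were chosen within 500 bp of a start site. An excess of promoter elements over such flanks was therefore favoured by the choice. The DRE was present within 100 bp of 198 summits (6.76%, exact 95% interval 5.88 to 7.73), against 0.785% and 0.307% of windows of the same length centred 1000 bp upstream and downstream. Motif 1 was present at 103 (3.52%), against 0.239% and 0.102% in the flanks, and motif 6, a core promoter motif, at 42 (1.43%), against 0.137% and 0.273%. CAACACTG, which was singled out from these same peaks, was present at 109 (3.72%), against 0.444% and 0.717%. Of 16 motifs searched on both strands, 10 were more frequent at the summit than in both flanks, with an exact interval over discordant peaks at the 99.6875% level, which allows for the 16 motifs. The 10 were not limited to housekeeping elements. They included TATAAA, the letters of the TATA box (27.3% against 19.6% and 18.7%), and the initiator core (34.2% against 27.2% and 27.0%). Matches were counted anywhere in the window, and those of TATAAA lay at a median of 97.5 bp upstream of the start site. Whether they act as a TATA box was not tested. GCCAT, the core of the Pho site, was less frequent (28.3% against 32.9% and 34.0%).

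The flanks lie off the promoter, so the share among promoters in general is given as well. Its windows end at the start site, whereas the members' windows also reach past it, so the values are not matched in position, which bears most on motif 1. Among windows of the same length just upstream of all 23401 start sites, 5.28% held a DRE, 1.44% motif 1, 1.34% motif 6, 4.87% motif 7 and 2.02% CAACACTG. Under the members these were 6.76%, 3.52%, 1.43%, 7.92% and 3.72%. The TATA box, searched as TATAAA, was present at 27.3% of the members and in 32.8% of start site windows. Sites of Zelda (CAGGTAG), AP-1 (TGANTCA) and Hsf (GAANNTTC) and the CACGTG E-box, at 1.23%, 3.93%, 5.05% and 2.94% of summits, were not called against the flanks, nor was GAGAG, the core of the GAGA factor site, at 25.1%. A match describes the letters of a window and not a bound site.

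**Figure D4:**
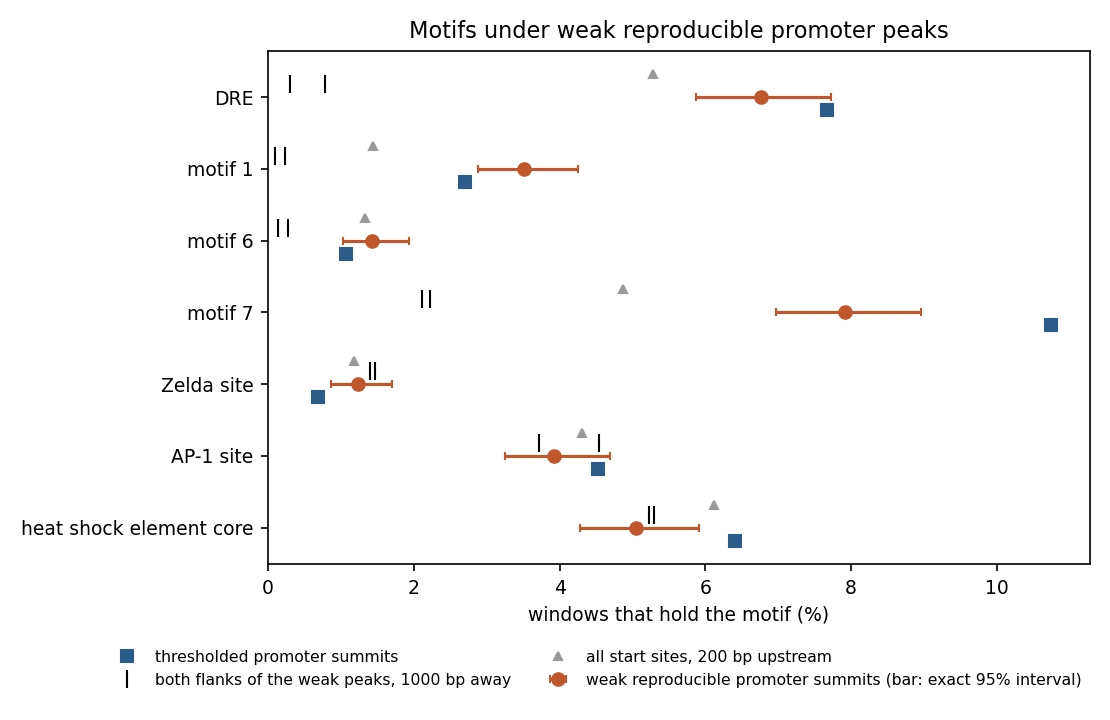
Share of windows, 100 bp to each side of the summit, that hold each motif (horizontal, percent): weak reproducible promoter summits with exact 95% intervals (orange), thresholded promoter summits (blue squares), both flanks of the weak peaks (black ticks) and the stretch upstream of all start sites (grey triangles). The DRE, motif 1, motif 6 and motif 7 lie far to the right of the flank ticks under the weak summits. Their grey triangles lie nearer to the weak summits than the flank ticks do. The Zelda, AP-1 and heat shock elements lie close to their flank ticks.

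Set against thresholded promoter peaks, no motif was called more frequent under the weak ones. Intervals of the difference excluded 0 for 4 of 16 motifs (25% of those tested), and each of the 4 was rarer under the members. CAACACTG was at 3.72% of the members and 6.09% of thresholded peaks, -2.37 points (99.6875% interval -4.59 to -0.43). It was singled out from these same peaks, so its calls here and in the other comparisons are a description, not independent support. CACTG, which lies within CAACACTG and can lie within motifs 1 and 7, was at 41.6% and 46.9% (-5.30 points, -9.86 to -0.74). Motif 7 was at 7.92% and 10.7% (-2.82, -5.67 to -0.19) and the TATA box at 27.3% and 31.8% (-4.50, -8.76 to -0.33). The DRE (6.76% and 7.66%, interval of the difference -3.44 to 1.40) and motif 1 (3.52% and 2.70%, -0.91 to 2.32) were not called. With the summits of replicate 2, CACTG and CAACACTG were called, and with those of replicate 4 also motif 7. None of the 4 calls held in the 1464 members of higher signal, where the differences kept their direction at -4.46 points for the TATA box, -3.62 for CACTG, -1.45 for CAACACTG and -0.70 for motif 7, over fewer peaks. With 50 bp instead of 100 bp on each side of the summit the CACTG difference turned to 0.36 points. GC content also differed, with medians of 39.8% under the members and 36.8% under thresholded peaks, and its part in these differences was not tested.

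Against the weak promoter peaks not found in both replicates, 7 motifs were more frequent under the members and 0 less. The DRE was at 6.76% against 4.41% of 5393, motif 1 at 3.52% against 2.00%, motif 7 at 7.92% against 4.30% and CAACACTG at 3.72% against 1.48%. The CGATA core (36.3% against 32.4%), CACTG (41.6% against 35.6%) and the TATA box (27.3% against 24.3%) made up the 7. These unmatched peaks were also weaker, with a median pooled signal of 24.4 against 42.0. One or more of the DRE, motif 1, motif 6, motif 7 and CAACACTG was held by 20.6% of the members, 24.3% of thresholded promoter peaks, 11.7% of the unmatched weak ones and 3.38% of the weak reproducible peaks away from promoters.

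The elements differed in their place. Under the members the DRE lay at a median of 38 bp upstream of the start site and was upstream in 81.8% of cases, and motif 1 was centred on the start site itself, with a median position of 0 and 49.5% upstream. Thresholded peaks had medians of 38.5 bp upstream for the DRE and 14 bp upstream for motif 1. Motif 6 lay at a median of 53.5 bp upstream under the members and 67.5 bp under thresholded peaks, motif 7 at 19.5 and 35 bp, the TATA box at 97.5 and 132.5 bp and CAACACTG at 39.5 and 24.5 bp. Matches were searched only within 100 bp of a summit, so their positions depend on where the summits lay. The median summit was 41 bp upstream for the members and 88 bp upstream for thresholded peaks. Whether the motif positions differ was not tested. Among 8-base sequences present at 40 or more members, TATCGATA had the highest ratio to the flanks, at 198 summits against a mean of 16 per flank. It was followed by its overlapping form ATCGATAG and by pieces of motif 1 such as GGTCACAC, at 178 summits against 19.

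The elements followed the signal in different ways. The TATA box was most frequent in the highest thresholded class, at 36.4%, followed by 32.7%, 29.1% and 28.9%, and it was at 26.5% to 28.1% in the classes of the members. The DRE was present in 5.28%, 6.53%, 10.3% and 8.54% of the thresholded classes and in 8.06%, 8.20%, 5.46% and 5.32% of those of the members. Motif 1 was at 0.754% and 1.51% in the 2 highest thresholded classes, at 4.27% in both of the lower ones, and at 4.64%, 3.96%, 3.01% and 2.46% in the members. CAACACTG reached 8.04% in the third thresholded class and went from 4.92% in the highest to 1.77% in the lowest class of the members. Exact 95% intervals of neighbouring classes overlap for the DRE, motif 1 and CAACACTG throughout. For motif 1 the interval of the highest thresholded class ended at 2.19% and that of the highest class of the members began at 3.24%. These intervals are not adjusted for the number of classes, and over all peaks motif 1 was not called between the members and thresholded peaks. For CAACACTG the interval of the lowest class of the members ended at 3.01%, below the 5.56% at which that of the third thresholded class began.

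The weak peaks took the protein-coding genes with a thresholded or a weak reproducible promoter peak from 2006 to 4653 (33.6%). Of 13865 such genes on the 5 arms, 2006 (14.5%) had a thresholded one. A weak reproducible peak alone of these kinds was present at 2647 (19.1%), which is 22.3% of the 11859 genes without a thresholded peak. Both kinds stood at 380 genes. A further 2916 genes (21.0%) had only a weak peak not found in both replicates, and 6296 (45.4%) had none of the 30000 peaks at a promoter. Genes with more annotated start sites had more chances: the weak reproducible share was 15.9% of genes with 1 start site, 25.7% with 2 and 32.8% with 3 or more. The nearest start site belonged to a protein-coding gene at 2671 members (91.2%), to a non-coding RNA gene at 206 and to a tRNA gene at 35.

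The gene lists below were put together with earlier results of these peaks known, and their counts are to be read beside the 14.5% and 19.1% of all protein-coding genes. Among 85 genes of cytosolic ribosomal proteins, 52 had a thresholded peak and 23 more a weak reproducible one (27.1%). Of the rest, 8 had another weak peak alone and 2 had no promoter peak. The 23 make up 69.7% of the 33 without a thresholded peak, against 22.3% over all such genes. The strongest of them lay 10 bp upstream of sta, which encodes ribosomal protein SA, with a pooled signal of 66.3, 36.0 in replicate 2 and 32.8 in replicate 4. RpS6 had 64.4, 35.9 and 27.9 in the same lists, with the summit 83 bp into the gene in a coding exon. RpL35 had 63.5 and was unequal in the replicates, at 47.6 and 13.3. These genes have a median of 2 annotated start sites, against 1 over all genes. Medians above 1 also apply to Hox and muscle genes (2), neuronal genes (2.5), the ecdysone response (3) and the EGF receptor and MAP kinase list (1.5).

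Genes of DNA replication and the cell cycle had the highest share. Of 48, 13 had a thresholded peak and 25 (52.1%, exact 95% interval 37.2 to 66.7) a weak reproducible one, which is 71.4% of those without a thresholded peak. At stg, the Cdc25 phosphatase that drives embryonic mitoses, the summit lay 6 bp past the start with a pooled signal of 64.2, 33.5 in replicate 2 and 28.7 in replicate 4. PolA1, the catalytic subunit of DNA polymerase alpha, had 63.3, 40.8 and 24.0 in that order, 123 bp upstream. CycA, the mitotic cyclin A, had 61.2, 43.3 and 14.3, 38 bp upstream. Both PolA1 and CycA had a DRE and motif 7 within 100 bp of the summit, and stg had neither.

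Other machinery of all cells had weak reproducible shares from 17.9% to 35.7%. Of 84 oxidative phosphorylation genes 11 (13.1%) had a thresholded promoter peak, near the 14.5% of all genes, and 25 (29.8%) a weak reproducible one. Among the 25 were RFeSP, the Rieske iron-sulfur protein, with a pooled signal of 60.6, and ND-42, a subunit of complex I, with 57.2. Of 34 proteasome genes 5 and 10 had the respective peaks, led by Rpt2 at 66.8, Rpn13 at 65.8 and Rpn6 at 64.7. Splicing factors had 7 and 10 of 28, RNA polymerase II and general factors 12 and 12 of 37, and Mediator 9 and 5 of 28. Mitochondrial ribosomal proteins had 22 and 16 of 75, translation factors 15 and 11 of 51 and aminoacyl-tRNA synthetases 8 and 7 of 33. Their weak shares of 21.2% to 21.6% were close to the 19.1% of all genes. Of their genes without a thresholded peak, 30.2%, 30.6% and 28% had a weak reproducible one, in that order. Over all genes without a thresholded peak it was 22.3%. Some of these peaks stood for a pair of genes: 1 summit with a signal of 55.0 lay between Taf10 and Taf10b, both subunits of the general factor TFIID.

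Chromatin regulators had thresholded and weak reproducible peaks in like numbers. Of 32 Polycomb and trithorax group genes 12 had a thresholded and 10 a weak reproducible peak (31.2%), and of 19 insulator and architectural protein genes 7 and 6. Pc, whose product binds methylated histone H3, had a pooled signal of 66.4, with 34.6 in replicate 2 and 32.6 in replicate 4, 113 bp upstream. Su(z)2, another Polycomb group gene, had 67.3, 34.7 and 27.9, with the summit 74 bp past the start. At CTCF, the insulator protein gene, the signals were 49.3, 20.8 and 26.2, and at mod(mdg4) they were 52.1, 32.8 and 21.0.

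Developmental genes were mixed. None of the 8 Hox genes had a thresholded promoter peak and 4 had a weak reproducible one. The strongest was at Dfd, which specifies head segments, 258 bp upstream with a pooled signal of 60.4, 36.3 in replicate 2 and 26.9 in replicate 4, followed by abd-A at 38.9 and Antp at 38.1. Segmentation genes had 4 and 4 of 27, with cad, the posterior determinant caudal, at 66.6. In the Wnt, Hedgehog and Dpp pathways 5 of 33 had a thresholded and 12 (36.4%) a weak reproducible peak, including sog, the secreted Dpp antagonist, at 65.7, the Dpp receptor gene tkv at 65.5 and Axn, a negative regulator of Wnt signalling, at 61.0. The EGF receptor and MAP kinase list had 6 and 8 of 22, with the repressor gene aop at 56.6 and the antagonist gene sty at 54.3. Notch had 7 and 5 of 28, led by the glycosyltransferase gene fng at 63.8, Hippo 6 and 4 of 18, led by kibra at 62.7, and the ecdysone response 6 and 4 of 14, led by the nuclear receptor gene Hr39 at 56.9.

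Cell biology and tissue lists ranged from 9.09% to 35.3% in their weak reproducible share. Vesicle coats and endosomal sorting had 12 and 18 of 51 (35.3% weak), led by Rab39 at 64.4, and autophagy and lysosome 22 and 19 of 82, led by Atg4b at 66.6. Heat shock and chaperone genes had 7 and 9 of 37, with the mitochondrial chaperonin gene Hsp60A at 54.9. Muscle genes had 3 and 8 of 23, with the Z-disc gene Zasp52 at 54.9 and Mef2, the myogenic factor, at 44.1. Germline genes had 3 and 4 of 18, with piwi at 53.3, and neuronal genes 2 and 2 of 22, namely Syx1A at 59.3 and Dscam1 at 39.2 among the weak ones.

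Terminally specialised families were nearly empty. None of 180 odorant, gustatory and ionotropic receptor genes had a thresholded promoter peak, 5 (2.78%) had a weak reproducible one and 164 had no promoter peak. The 3 strongest of the 5, Ir60e at 59.3, Ir60b at 58.9 and Gr63a at 54.1, each lay over a diverging pair whose other start site belongs to CG13585, Letm1 and Lamtor4, and were 250 to 478 bp upstream of the receptor gene. Of 122 cuticle protein genes 0 had a thresholded and 3 (2.46%) a weak reproducible peak, with signals of 35.4 to 36.4. Whether a list's share differs from that of all genes was not tested for any list.

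**Figure D5:**
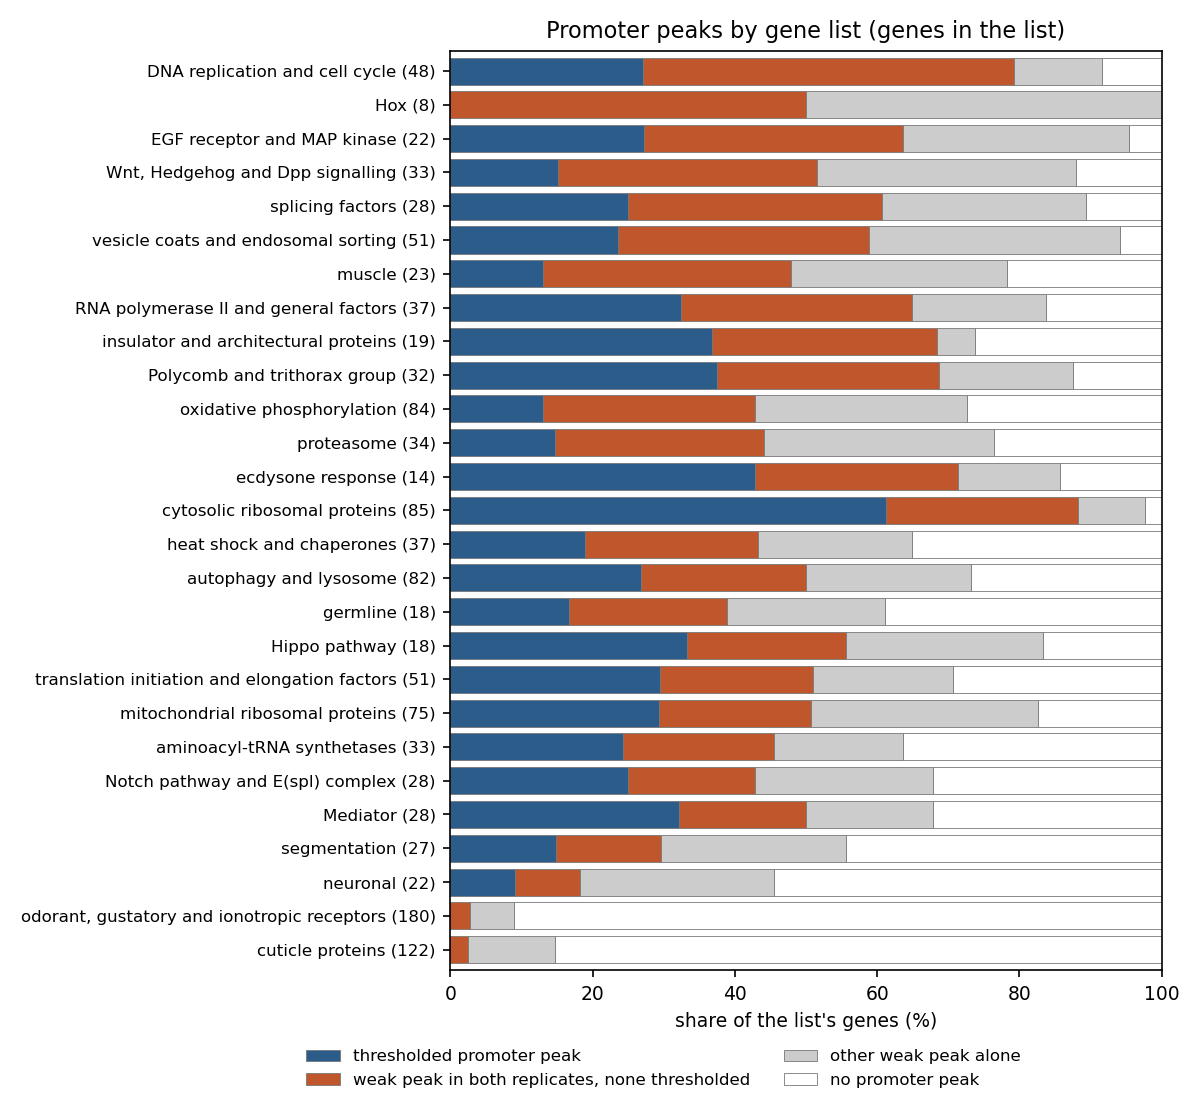
Share of each list's genes (horizontal, percent, number of genes in brackets) with a thresholded promoter peak, a weak reproducible one and none thresholded, another weak peak alone, or no promoter peak, ordered by the weak reproducible share. DNA replication and cell cycle genes lead with 52.1%, and receptor and cuticle genes end the order with 2.78% and 2.46%.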

How the data were processed

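Anti-GFP chromatin immunoprecipitation of CG12744 was sequenced in 2 biological replicates. The authors deposited narrowPeak lists for dm6 and dm3: 1 per replicate, 1 pooled and 1 thresholded by IDR, per the deposited records, which name no peak caller or aligner. Column 7 is the deposited signal of the authors' caller and column 9 the deposited −log10 of a q value. Read depth is unknown, and precision is limited to the number of peaks. The dm6 lists were used with the Release 6 genome and the Ensembl release 115 annotation, without transposable elements; dm3 served for 1 count.

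A gene counts when a summit lies within 500 bp of any of its start sites. Shares have exact (Clopper-Pearson) 95% intervals and their differences Newcombe intervals, called where 0 is excluded, and the motif intervals are at 99.6875% over 16 motifs. The members, the 27 gene lists and the motifs were chosen with earlier results of these data known. Named genes are those nearest to the 12 highest, the 8 best-ranked in both replicates and the 3 lowest members, and up to 3 per list by signal, and some of them are not reported here. Alternatives changed the match distance, promoter window, replicates needed, annotation, motif window and flanks. The statistics were tested on simulated data. Python 3.11.15, numpy 2.4.6, scipy 1.17.1 and matplotlib 3.10.9 were used.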

Additional observations from a re-analysis of the deposited data

Results flagged for a closer look

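Chromosome 4, which the choice of members leaves out, held 41 weak promoter peaks with a summit in both replicates. They stand outside every comparison above, and the same chromosome held 4 thresholded promoter peaks.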

How the results depend on the processing

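The differences from thresholded promoter peaks in side of the start site and in diverging start sites kept their direction and their call under every alternative run, at -22.7 to -11.5 and -17.9 to -10.6 points, and 8 to 12 motifs differed from both flanks. With summits required within 50 bp there were 1817 members, 1692 genes with a weak reproducible peak and no thresholded one, and 2 motifs called against thresholded peaks. Needing a summit in 1 replicate alone gave 4693 to 5706 members and 3767 to 4420 genes. The members of higher signal, 1464 in number, gave 1480 genes and 0 motifs called. A motif window of 50 bp gave 2 motifs and reversed CACTG to 0.36 points; the cause was not tested. Of 208 single motif comparisons with thresholded peaks, 192 kept their status, called or not, 13 lost a call, 2 gained one and 1 reversed. Only 4 of the 16 motifs were called to begin with, so most of the 192 kept the absence of a call. Gene counts of lists were also compared across the alternative settings, a step added after the data were seen. They were 14 to 30 of 85 for cytosolic ribosomal proteins and 17 to 28 of 48 for the cell cycle. Over all genes they were 1480 to 4420. The low ends came with the members of higher signal, and the high ends where replicate 4 was not needed. The dm3 lists gave 7782 weak reproducible peaks on these arms, against 7816. No paired analysis was possible because there is 1 group. The number of reads is unknown, so the depth behind each weak peak cannot be given.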
